A study of Homo sapiens with 18 samples.

Results

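The 40 genes described here act in the G2 and M phases of the cell cycle, and were followed in RNA sequencing of 3 related human breast epithelial lines. They were chosen by symbol from a list of well-known mitosis genes, and all 40 were found among the 35933 genes with values in the deposited table. MCF10A is a spontaneously immortalised, non-tumorigenic line, MCF10AT1 is its derivative that carries mutated HRas, and MCF10CA1h came out of MCF10AT1 after serial passage as mouse xenografts. Each line had 3 libraries (replicates a, b and c) of a negative CRISPR line, made with a control guide, and 3 of a line labelled METTL3 knockdown, made with Cas9 and a guide to METTL3, which gave 18 libraries in 6 groups. The sample titles call the control libraries WT, and the paper names a negative CRISPR line as the control of its comparison. By the paper's methods, all groups went through transfection and sorting for mCherry followed by single-cell selection. All were grown with horse serum, insulin, hydrocortisone, cholera toxin and EGF. The labels do not say whether replicates came from separate cultures, and each group is 1 CRISPR line, so the p-values below measure only the spread between these libraries.

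The cell enters mitosis when CDK1, bound to cyclin B, becomes active, and it leaves when the anaphase-promoting complex marks cyclin B and securin for destruction. Most of the genes for this machinery are repressed in resting and early cycling cells and are transcribed together late in the cycle, by B-MYB and FOXM1 working with the MuvB complex. MuvB binds a short promoter element, the cell cycle homology region, which is often accompanied by CCAAT boxes bound by NF-Y. METTL3 is the catalytic subunit of the enzyme that places N6-methyladenosine on messenger RNA. A level below is a normalised count, and a fold change is the difference of log2(normalised count + 1) between groups, which understates the change of genes with low values.

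The promoter letters shared by many of these genes are shown first. RefSeq promoters (GRCh38.p14, from 250 bases before to 50 after the start) were found for 33 of the 40 genes, and the other 7 were AURKA, BIRC5, BUB3, FOXM1, TPX2, TTK and UBE2C. The cell cycle homology letters TTTGAA or TTCGAA, read on both strands, were present in 24 of the 33 (72.7%) and in 16.6% of all 27305 promoters. In 14 of the 33 (42.4%) they began within 60 bases before the start, against 3.16% of all promoters. CCAAT, on both strands, was in 27 (81.8%) against 35.7%, and 2 or more CCAAT in 18 (54.5%) against 11.3%. Both kinds of element were in 21 (63.6%) against 6.58%. An E2F type site (TTTGGCGC, TTTCGCGC, TTTCCCGC or TTTGCCGC, on both strands) was in 3 (9.09%) against 3.33%. The median GC content was 60.3% in the 33 promoters and 58.3% in all. Matches of different motifs may share bases, as a homology element and a CCAAT box on the other strand do in MKI67. These are matches of letters, not measured binding. The 5 promoters, printed 5′ to 3′ on the strand of the gene, all hold both elements and belong to genes named below. MKI67, KIF11 and CKS2 fell in the METTL3 CRISPR line of MCF10CA1h, and PLK1 stands for the mitotic kinases. The levels of ECT2 went apart from the others. Capitals mark the homology and CCAAT letters on either strand, and E2F type letters where present. The windows are chr10:128126374-128126673 (minus strand) for MKI67, chr10:92592880-92593179 (plus) for KIF11, chr9:89310945-89311244 (plus) for CKS2, chr16:23678639-23678938 (plus) for PLK1 and chr3:172750476-172750775 (plus) for ECT2.
MKI67: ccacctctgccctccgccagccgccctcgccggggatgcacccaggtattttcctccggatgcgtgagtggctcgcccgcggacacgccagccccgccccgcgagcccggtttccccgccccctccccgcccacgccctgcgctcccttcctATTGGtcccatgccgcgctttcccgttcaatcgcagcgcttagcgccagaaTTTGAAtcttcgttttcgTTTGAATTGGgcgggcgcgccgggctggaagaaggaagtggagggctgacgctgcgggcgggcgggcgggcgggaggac
KIF11: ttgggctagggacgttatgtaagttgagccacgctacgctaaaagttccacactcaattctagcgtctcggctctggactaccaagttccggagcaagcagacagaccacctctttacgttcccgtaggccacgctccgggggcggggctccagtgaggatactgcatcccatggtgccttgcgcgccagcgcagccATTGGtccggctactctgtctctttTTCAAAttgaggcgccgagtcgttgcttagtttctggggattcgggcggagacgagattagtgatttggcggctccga
CKS2: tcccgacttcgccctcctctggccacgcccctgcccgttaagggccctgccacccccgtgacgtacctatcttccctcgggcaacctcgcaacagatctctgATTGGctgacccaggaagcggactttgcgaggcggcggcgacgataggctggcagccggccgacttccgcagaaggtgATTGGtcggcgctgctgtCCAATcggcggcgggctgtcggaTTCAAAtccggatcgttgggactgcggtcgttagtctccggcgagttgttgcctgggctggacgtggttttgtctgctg
PLK1: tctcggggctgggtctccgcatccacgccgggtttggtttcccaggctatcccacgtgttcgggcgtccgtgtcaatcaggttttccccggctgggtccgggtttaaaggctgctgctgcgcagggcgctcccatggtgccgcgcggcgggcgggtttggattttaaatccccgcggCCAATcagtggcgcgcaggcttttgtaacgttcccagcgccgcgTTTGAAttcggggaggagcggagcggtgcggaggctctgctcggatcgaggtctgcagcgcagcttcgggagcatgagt
ECT2: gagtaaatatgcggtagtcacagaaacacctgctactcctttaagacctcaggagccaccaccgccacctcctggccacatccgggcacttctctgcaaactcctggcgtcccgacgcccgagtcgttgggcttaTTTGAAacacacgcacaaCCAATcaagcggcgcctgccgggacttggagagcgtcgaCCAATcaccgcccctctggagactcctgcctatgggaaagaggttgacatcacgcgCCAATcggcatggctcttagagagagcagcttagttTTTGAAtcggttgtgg
In MKI67, CKS2 and PLK1 a homology element began 29 bases before the start, and in KIF11 28 bases before it. MKI67 had another, 47 bases before the start. In ECT2 the elements began 115 bases before the start and in the stretch after it.

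The level of the 40 genes differed more between lines, and between replicates of some groups, than between the CRISPR arms. The mean of log2(normalised count + 1) over the 40 genes was 8.83, 6.93 and 5.21 in replicates a, b and c of the MCF10A negative CRISPR line, and 7.58, 8.67 and 7.96 in the MCF10A METTL3 CRISPR line. In MCF10AT1 it was 9.57, 9.12 and 8.87 in the negative CRISPR line and 10.48, 9.85 and 7.74 in the METTL3 CRISPR line. In MCF10CA1h it was 11.09, 11.09 and 11.03 in the negative CRISPR line and 10.93, 10.79 and 10.72 in the METTL3 CRISPR line. Both MCF10CA1h groups lay above every library of the other lines. Within MCF10CA1h the groups did not overlap, and within MCF10A and MCF10AT1 they did. The mean level over all genes with a mean of at least 10 stayed between 7.75 and 7.94 in every library. In bulk RNA, fewer cells in G2 and M and less of these RNAs per cell cannot be told apart.

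**Figure D1:**
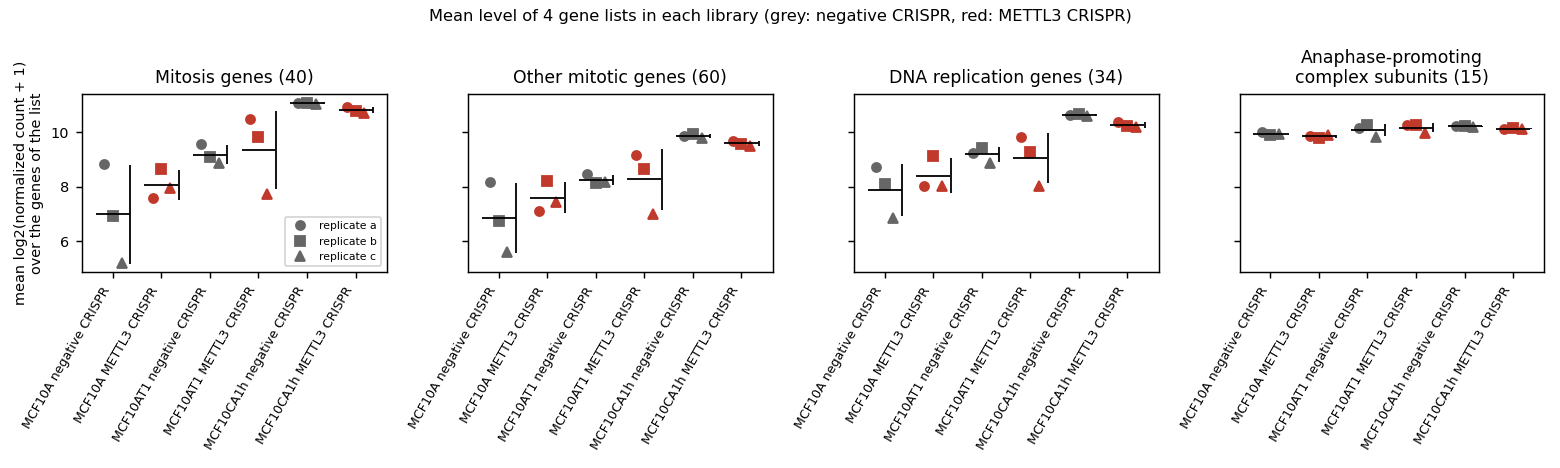
Mean log2(normalised count + 1) of the 40 mitosis genes, 60 other mitotic genes, 34 DNA replication genes and 15 anaphase-promoting complex subunits in each of the 18 libraries (points by replicate, horizontal lines for group means, vertical lines for 1 SD). The mitosis genes run from 5.21 to 11.09, while the anaphase-promoting complex subunits stay between 9.81 and 10.29.

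Several libraries stood apart, and they set the spread behind each comparison. In the MCF10A negative CRISPR line, 38 of the 40 genes were highest in replicate a and 38 were lowest in replicate c, with a median range of 18-fold between the replicates of a gene. The median SD of the members there was 2.08 on the log2 scale, against 0.317 over all genes, and 1.2% of all genes had an SD as large. CDC25C, the phosphatase that activates CDK1, had normalised counts of 90.0, 14.7 and 1.71 in replicates a, b and c. PLK1, a kinase needed for spindle assembly, had 605, 81.7 and 34.5. MKI67, which encodes the proliferation antigen Ki-67, had 1144, 228 and 40.2. DLGAP5, a spindle microtubule protein, showed the widest range, 56.1-fold, with 307, 53.8 and 5.48. BUB3, a checkpoint protein that also takes part in other processes, showed the narrowest, 1.29-fold, with 2874, 3532 and 3701. Thus replicate a was high and replicate c low for nearly every member, and BUB3 ran the other way.

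In the MCF10AT1 METTL3 CRISPR line the order was alike, with 38 genes highest in replicate a and 38 lowest in replicate c, a median range of 7.71-fold and a median SD of 1.52 against 0.428 over all genes. BIRC5, which encodes survivin of the chromosomal passenger complex, had 5212, 2834 and 259 in replicates a, b and c. CDC20, an activator of the anaphase-promoting complex, had 10675, 4937 and 565. Replicate c was the library that stood apart. The MCF10A METTL3 CRISPR line had 39 genes highest in replicate b and 34 lowest in replicate a, with a median range of 2.11-fold. The MCF10AT1 negative CRISPR line had a median range of 2.19-fold and a median SD of 0.588, near the 0.541 of all genes. In MCF10CA1h the median ranges were 1.14-fold and 1.19-fold in the negative and METTL3 CRISPR lines, and the median SDs of 0.0969 and 0.126 were below those of all genes, 0.181 and 0.193. Comparisons that use MCF10A or the MCF10AT1 METTL3 CRISPR line therefore carry wide intervals, and each is given below also without its outlying libraries.

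**Figure D2:**
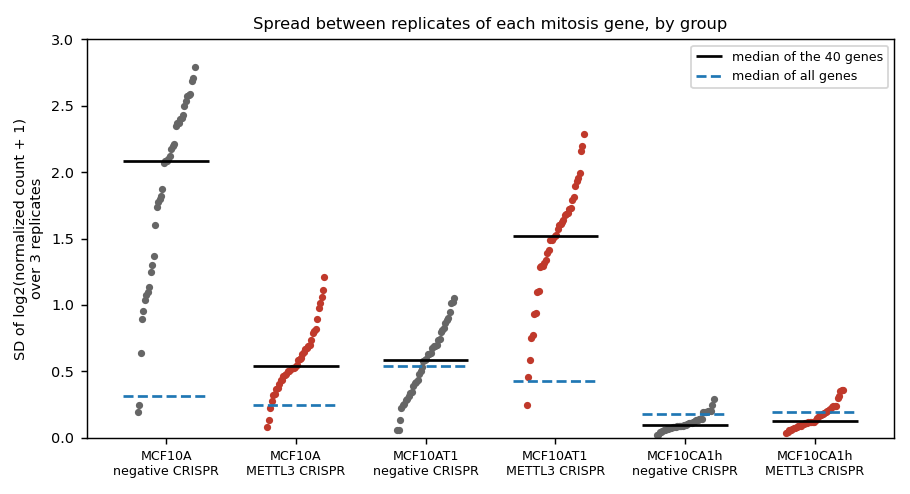
SD of log2(normalised count + 1) over 3 replicates for each of the 40 genes in each group (points, sorted within a group), with the median of the 40 genes (solid line) and of all genes (dashed line). The members' median lies at 2.08 in the MCF10A negative CRISPR line and at 0.0969 in that of MCF10CA1h.

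**Figure D3:**
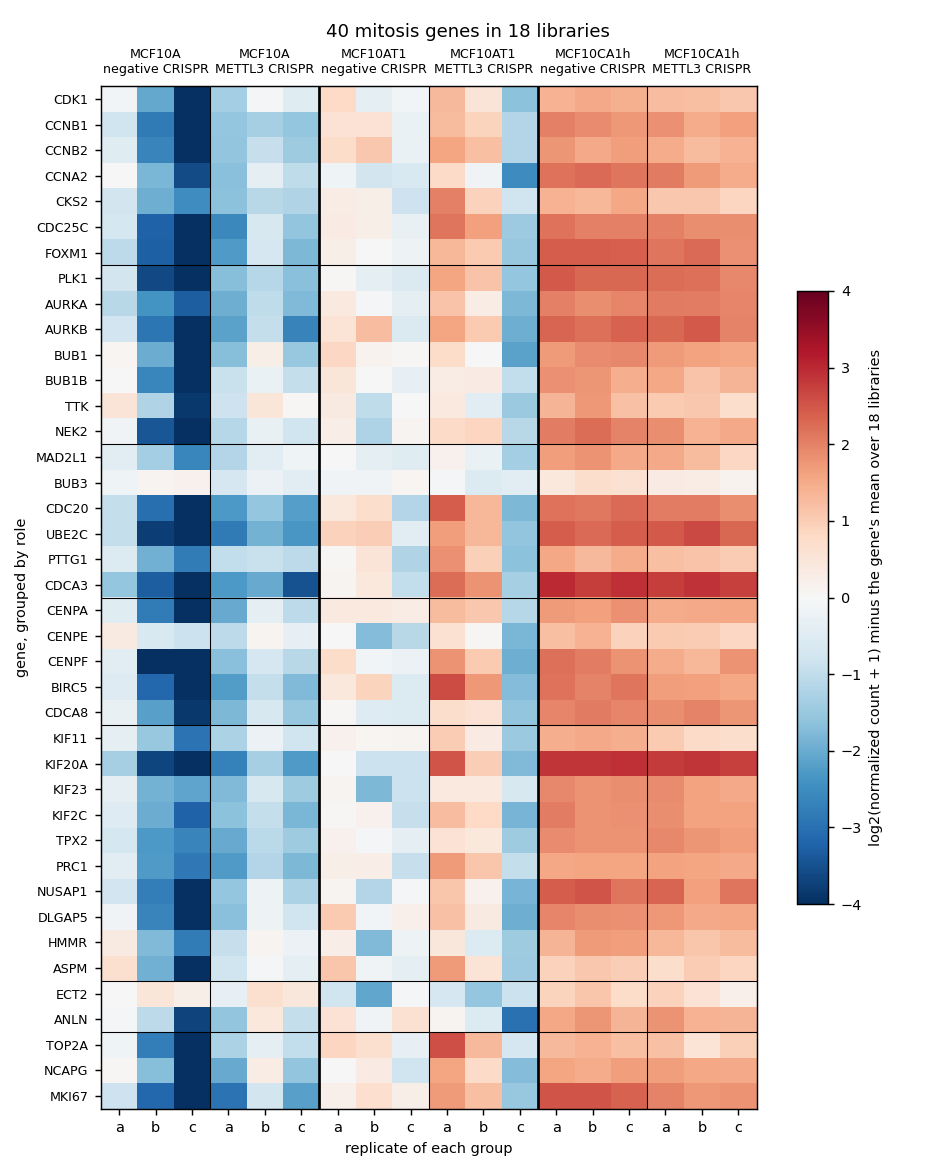
log2(normalised count + 1) of each of the 40 genes minus its mean over the 18 libraries, by library and grouped by role (colours end at −4 and 4 on the log2 scale, and values beyond take the end colour). Replicate c of the MCF10A negative CRISPR line is the lowest column for most genes, the MCF10CA1h columns are the highest for most, and BUB3 and ECT2 run apart.

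Other genes of the cell cycle were read from lists beside these values. The 34 DNA replication genes had mean log2 levels of 8.72, 8.10 and 6.86 in replicates a, b and c of the MCF10A negative CRISPR line and 9.82, 9.29 and 8.04 in the MCF10AT1 METTL3 CRISPR line, so the same replicates were high and low. The 15 subunits of the anaphase-promoting complex, which are not restricted to mitosis in their expression, stayed between 9.81 and 10.29 in all libraries. CDKN1A, which encodes the CDK inhibitor p21, had 8986, 11334 and 14591 in replicates a, b and c of the MCF10A negative CRISPR line. It was thus lowest where the mitosis genes were highest, and its part in their level was not tested. Of the cell type markers, KRT18 lay between 9380 and 48394 and KRT8 between 2867 and 29016 in all libraries. Other epithelial markers ran lower in some libraries, CDH1 down to 11.57, EPCAM to 78.78 and KRT14 to 6.58, and KRT19 did not exceed 60.39. The leukocyte genes PTPRC, CD3E and LYZ did not exceed 5.31, but CD14 ran from 44.85 to 2342.5 and CD68 from 144.51 to 2005.52. METTL3 itself, the target, had mean levels of 632 ± 154 (SD, n = 3) and 810 ± 261 in the negative and METTL3 CRISPR lines of MCF10A, 930 ± 111 and 823 ± 75.2 in MCF10AT1, and 1135 ± 132 and 804 ± 52.3 in MCF10CA1h. The groups did not overlap in MCF10CA1h alone (exact two-sided permutation p = 0.1, the smallest that 3 against 3 libraries can give, and p = 0.3 in each of the other lines). By limma, the lower METTL3 level in MCF10CA1h passed an adjusted p under 0.05 in the fit of that line, and lost the call in 4 of the alternative settings. RNA outside a deleted or frameshifted part need not fall, so the RNA level is a limited check of the labels. The paper reported less METTL3 protein by Western blot in each line, with a moderate knockdown in MCF10CA1h and a lesser effect on the RNA by real-time PCR.

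In MCF10CA1h, the mitosis genes were slightly lower in the METTL3 CRISPR line. The log2 fold change was negative for 38 of the 40 genes, with a median of −0.25, against a median of −0.02 over all 15127 genes tested. There were 4 genes that fell past the threshold (limma with Benjamini-Hochberg adjustment over all genes, adjusted p under 0.05), or 10% of the members, while 12.8% of all genes changed and 4.85% fell. None rose. At an unadjusted p under 0.05 there were 18 of 40, against 28.0% of all genes. The groups did not overlap, with the METTL3 CRISPR line lower, for 20 of the 40 genes and for 15.3% of all genes tested.

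MKI67 (ENSG00000148773, chr10:128096659-128126423, hg38) had normalised counts of 11634, 11509 and 10434 in replicates a, b and c of the negative CRISPR line and 7994, 6711 and 7025 in the METTL3 CRISPR line. The METTL3 CRISPR line held 64.6% of the control level (log2 fold change −0.63, SE 0.0957, adjusted p = 0.00256 by limma). KIF11 (ENSG00000138160, chr10:92574105-92655395), the motor that pushes the spindle poles apart, had 1316, 1381 and 1317 against 1001, 823 and 783. That is 64.6% of the control (log2 fold change −0.63, SE 0.118, adjusted p = 0.00702 by limma). BIRC5 (ENSG00000089685, chr17:78214186-78225636) had 3853, 3383 and 3787 against 2765, 2681 and 2530, or 72.4% of the control (log2 fold change −0.47, SE 0.0927, adjusted p = 0.00975 by limma). CKS2 (ENSG00000123975, chr9:89311195-89316703), a small subunit that binds CDK1, had 3726, 3579 and 4157 against 3004, 3013 and 2602, or 75.2% (log2 fold change −0.41, SE 0.101, adjusted p = 0.0246 by limma). In each of these genes all 3 METTL3 CRISPR libraries lay below all 3 controls. Just outside the threshold lay CENPF, a kinetochore protein, at −0.48 (adjusted p = 0.0511 by limma), NEK2, a centrosomal kinase, at −0.50 (adjusted p = 0.0526) and PTTG1, the gene of securin, at −0.33 (adjusted p = 0.0580).

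By role the medians lay close together, and differences between roles were not tested. CDK1 and its cyclins and regulators had a median log2 fold change of −0.28 over 7 genes, all negative, with 6 of the 7 not overlapping. The 7 mitotic kinases had a median of −0.22 and the 10 spindle motors and microtubule proteins one of −0.20. The 3 genes of chromosome structure, TOP2A, NCAPG and MKI67, ranged from −0.01 for NCAPG to −0.63 for MKI67. Near 0 lay PRC1, which bundles the central spindle, at −0.01 (95% interval −0.20 to 0.17), and KIF20A, a motor of cytokinesis, at −0.08 (−0.27 to 0.10). UBE2C, the ubiquitin-conjugating enzyme of the anaphase-promoting complex, was at 0.09 (−0.15 to 0.32), and AURKA was the other gene with a positive value, 0.08. The median half-width of the 95% intervals was 0.246, so changes of this size were near what 3 libraries a group could resolve. With all 18 libraries in one fit, which takes the wide spread of the other lines, none of the 40 passed, and with equal sums per library 10 did. Without replicate a of the negative CRISPR line 2 passed, and without replicate a of the METTL3 CRISPR line 8 did. Of all genes 1.56%, 13.75%, 7.2% and 11.8% passed in these fits, in that order.

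**Figure D4:**
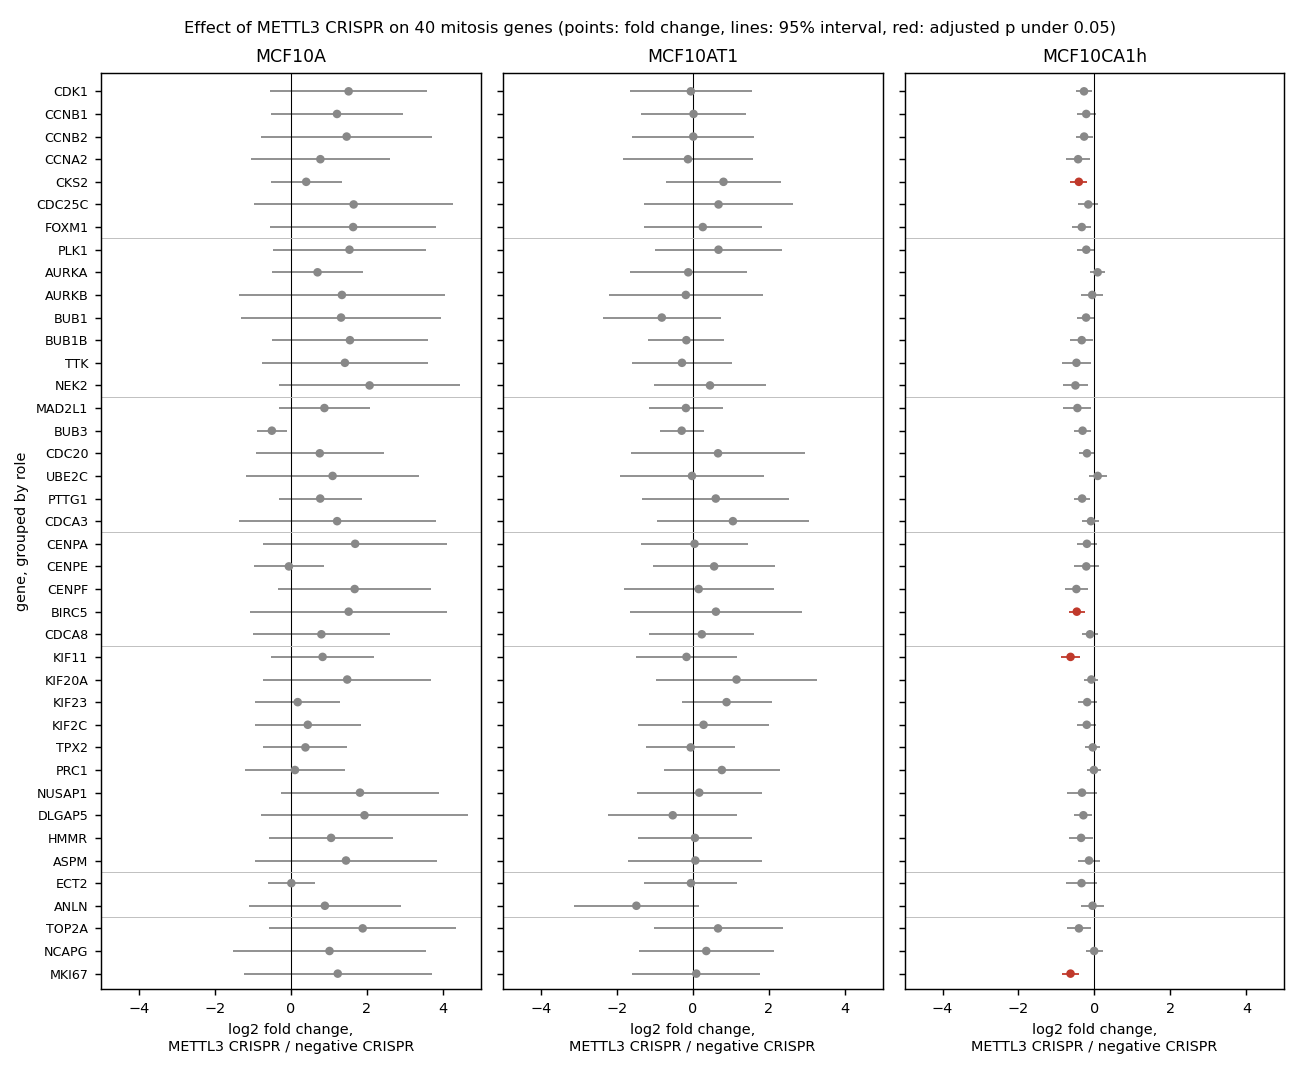
log2 fold change of each of the 40 genes in the METTL3 CRISPR line against the negative CRISPR line of MCF10A, MCF10AT1 and MCF10CA1h (points, with 95% intervals from limma as lines). Red marks an adjusted p under 0.05, reached by MKI67, KIF11, BIRC5 and CKS2 in MCF10CA1h, where the median half-width was 0.246, against 2.03 in MCF10A and 1.61 in MCF10AT1.

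Genes of other cell cycle lists were read in the same fit, in which 4.85% of all genes fell. Of 34 DNA replication genes 11 fell, none rose and all 34 had a negative fold change, with a median of −0.36. Among them MCM10, which loads at replication origins, fell by 0.76 on the log2 scale (SE 0.143, adjusted p = 0.00727 by limma). MCM5 fell by 0.54 and MCM2, another subunit of the replicative helicase, by 0.52. Of 60 other mitotic genes 8 fell and none rose, with a median of −0.29. SMC2, a condensin subunit, fell by 0.94 (SE 0.168, adjusted p = 0.00577 by limma), KIF15 by 0.58, KIF20B by 0.52 and NCAPD3 by 0.50. Of 15 genes of MuvB, B-MYB and the E2F factors 3 fell, which were E2F2 (−1.08), RBBP4 (−0.48) and E2F1 (−0.42), and none rose. Of the 15 anaphase-promoting complex subunits 1 fell, ANAPC16, by 0.48, and the median of the list was −0.03, against −0.02 over all genes.

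Of 5 CDK inhibitor genes tested in MCF10CA1h 1 rose and none fell, with a median log2 fold change of 0.34. Of all 15127 genes tested 1196 rose and 733 fell. CDKN1A had normalised counts of 6636, 5842 and 7287 in the negative CRISPR line and 11391, 12416 and 12379 in the METTL3 CRISPR line, with no overlap. The log2 fold change was 0.88 (SE 0.10, adjusted p = 0.000482 by limma). Its effect also differed between lines, by 1.18 from MCF10A (adjusted p = 0.0114 by limma) and by 1.36 from MCF10AT1 (adjusted p = 0.00114). Whether it had a part in the lower mitosis genes was not tested. Epithelial markers moved in the same comparison, with 3 of 9 higher (KRT14, KRT17 and KRT5) and summed levels of 328107 to 351483 in the negative and 425903 to 454746 in the METTL3 CRISPR line. Of the markers of other cell types, 1 of 2 leukocyte genes tested rose (CD68) and 1 fell (CD14), 1 of 6 fibroblast genes rose (DCN) and 1 fell (COL3A1), and 1 of 2 endothelial genes fell (PECAM1). The part of these markers in the result was not tested either.

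In MCF10A, none of the 40 mitosis genes passed the threshold (limma, 1 at an unadjusted p under 0.05), while 2.65% of all 15416 genes did and 18.4% had an unadjusted p under 0.05. The fold change was positive for 38 of the 40 genes, with a median of 1.22, but the median half-width of the 95% intervals was 2.03, and the groups overlapped for all genes but BUB3. BUB3 had 2874, 3532 and 3701 in replicates a, b and c of the negative CRISPR line and 2027, 2760 and 2368 in the METTL3 CRISPR line (log2 fold change −0.50, SE 0.171, adjusted p = 0.171 by limma). The METTL3 CRISPR line was lower without overlap for 13.4% of all genes. NUSAP1, a spindle microtubule protein, had 289, 71.5 and 15.2 against 170, 424 and 205 (log2 fold change 1.82, SE 0.909, adjusted p = 0.338 by limma). NEK2 had 131, 12.8 and 3.88 against 64.9, 119 and 82.9 (log2 fold change 2.07, SE 1.04, adjusted p = 0.338). In both genes replicate a of the control lay inside or above the METTL3 CRISPR range and replicates b and c lay below it. The result rested on single control libraries. Without replicate a of the negative CRISPR line 17 genes were called higher, with a median of 2.35, and without replicate c none was, with a median of 0.18. Of all genes 9.2% and 1.32% passed in these fits. By role, the median ran from 0.45 for the 2 cytokinesis genes to 1.52 for the 5 genes of the centromere, kinetochore and passenger complex. No DNA replication gene and no other mitotic gene passed in this line by limma, with 0 of 34 and 3 of 60 at an unadjusted p under 0.05. The CDK inhibitor gene that did was CDKN1C, which encodes p57 and fell by 3.0 (SE 0.421, adjusted p = 0.0143 by limma). Of the cell type markers 1 of 9 epithelial genes rose (KRT5). The summed level of that list was 229973 to 242202 in the negative and 307054 to 340369 in the METTL3 CRISPR line. Its other genes did not all follow, with 4 of the 9 fold changes positive and 5 negative and a median of −0.04. At an unadjusted p under 0.05, 1 was higher and 2 were lower. The mean log2 level over the 10 genes of the list was 12.03 in the negative and 11.96 in the METTL3 CRISPR line. The summed leukocyte markers were 746 to 2113 against 285 to 540, and the 2 genes tested were lower at an unadjusted p under 0.05. The summed endothelial markers were 56.1 to 237 against 339 to 536. Of the 3 endothelial genes tested 1 was higher and 2 lower at an unadjusted p under 0.05, with a median log2 fold change of −2.47. None of these leukocyte and endothelial genes passed the threshold by limma. The 2 fibroblast genes tested did not pass either, with 1 higher and 1 lower at an unadjusted p under 0.05. The summed fibroblast markers were 1083 to 1970 against 1411 to 4249. The part of these markers in the values of the mitosis genes was not tested.

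In MCF10AT1, none of the 40 passed either (limma, 0 at an unadjusted p under 0.05), while 13.0% of all 16050 genes did and 27.6% had an unadjusted p under 0.05. The median log2 fold change was 0.08, with 25 positive and 15 negative, and the median half-width of the 95% intervals was 1.61. ANLN, which encodes the cytokinetic ring protein anillin, had 1240, 748 and 1277 in replicates a, b and c of the negative CRISPR line and 901, 570 and 105 in the METTL3 CRISPR line (log2 fold change −1.48, SE 0.720, adjusted p = 0.226 by limma). KIF23, a motor of the central spindle, had 689, 184 and 356 against 836, 836 and 414 (log2 fold change 0.89, SE 0.516, adjusted p = 0.308). KIF20A had 648, 354 and 355 against 3684, 1284 and 190 (log2 fold change 1.16, SE 0.924, adjusted p = 0.464). Thus replicates a and b of the METTL3 CRISPR line were above all controls for KIF20A and KIF23, and replicate c was below or among them. Without that replicate c, 6 genes were called higher and the median rose to 0.99, with 37 of 40 positive. Without replicate a of the same group none was called and the median was −0.40, with 8 of 40 positive. Of all genes 10.9% passed without replicate c and 8.52% without replicate a. With equal sums per library the median of the 40 turned from 0.08 to −0.08, while that of all genes moved from 0.02 to −0.15. Of the DNA replication and other mitotic genes none passed here by limma, with 2 of 34 and 1 of 60 at an unadjusted p under 0.05. In this line the epithelial markers also fell, 5 of 10 tested, among them CDH1 with a log2 fold change of −6.79 and EPCAM with one of −5.16, and a summed level of 110417 to 150498 in the negative and 28943 to 58311 in the METTL3 CRISPR line. Of 5 fibroblast and mesenchymal markers tested 2 rose, THY1 by 9.61 and COL3A1 by 8.95, and the summed level of that list went from 427 to 659 in the negative to 2703 to 4509 in the METTL3 CRISPR line. COL1A2 was at 0 in all 3 control libraries and did not exceed 14.7 in any library. The part of these markers in the values of the mitosis genes was not tested.

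Whether the CRISPR effect differed between lines was tested as an interaction over the 18 libraries. None of the 40 genes passed in any of the 3 contrasts (limma, with 1, 1 and 0 at an unadjusted p under 0.05), while 21.6%, 5.34% and 18.2% of all 15897 genes passed for MCF10AT1 against MCF10A, MCF10CA1h against MCF10A and MCF10CA1h against MCF10AT1, and 33.6%, 17.5% and 30.2% had an unadjusted p under 0.05. The medians over the 40 genes were −0.998, −1.42 and −0.39, and the median half-width was 2.37. Without replicate c of the MCF10A negative CRISPR line those of the first and the second contrast were −0.06 and −0.50. Without replicate c of the MCF10AT1 METTL3 CRISPR line those of the first and the third contrast were −0.14 and −1.22, and without its replicate a the third turned to 0.06. The smallest adjusted p were those of ANLN (difference −2.38, 95% interval −4.75 to −0.01, adjusted p = 0.148 by limma) in the first contrast, NEK2 (−2.57, −5.06 to −0.08, adjusted p = 0.268) in the second and KIF23 (−1.08, −2.50 to 0.33, adjusted p = 0.298) in the third. A difference of the CRISPR effect on single mitosis genes was thus not resolved, and intervals of this width leave room for several-fold differences. Without replicate a of the MCF10A negative CRISPR line, 7 of the 40 genes passed in the first contrast and 5 in the second, all negative. Of all genes 20.2% and 6.87% passed in these fits. Without replicate c of the MCF10AT1 METTL3 CRISPR line 1 of the 40 passed in the third contrast, against 21.6% of all genes.

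Among the negative CRISPR lines alone, the mitosis genes rose from MCF10A to MCF10CA1h. These 3 contrasts came from 1 fit of the 9 control libraries, which the comparisons above share. In MCF10CA1h against MCF10A 39 of the 40 genes rose, with a median log2 fold change of 4.09, while 37.8% of all 15652 genes changed and 19.0% rose. All 40 genes were higher in every MCF10CA1h library than in every MCF10A library, which held for 31.4% of all genes. The largest differences were those of CDCA3, which promotes entry into mitosis through destruction of WEE1, and KIF20A. CDCA3 had 101, 29.2 and 2.04 in replicates a, b and c of MCF10A and 2387, 2024 and 2240 in MCF10CA1h (log2 fold change 6.71, SE 1.02, adjusted p = 0.00129 by limma). KIF20A had 257, 49.97 and 11.02 against 4681, 4700 and 4944 (log2 fold change 6.47, SE 0.860, adjusted p = 0.000743). UBE2C had 374, 52.5 and 13.8 against 3895, 3534 and 3909, a log2 fold change of 5.82. MKI67 had 1144, 228 and 40.2 against 11634, 11509 and 10434, a log2 fold change of 5.66. FOXM1, the transcription factor of this gene programme, had 515, 110 and 24.4 against 5690, 5673 and 5543, a log2 fold change of 5.64. Each of these genes spread widely in MCF10A and hardly in MCF10CA1h, so the fold depends on which MCF10A library is taken.

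AURKB, the kinase of the chromosomal passenger complex, had 212, 48.1 and 4.12 in MCF10A and 1820, 1681 and 1868 in MCF10CA1h, a log2 fold change of 5.57. PLK1 had 605, 81.7 and 34.5 against 5471, 4884 and 4976, a log2 fold change of 5.40, and CDC25C had 90.0, 14.7 and 1.71 against 671, 604 and 606, one of 5.32. Even MCF10A replicate a, the highest of its group for these genes, stayed below every MCF10CA1h library. Without MCF10A replicate c, which held the lowest values, 36 of the 40 still passed, against 25.1% of all genes, and the median was 3.18. Without replicate a 38 of the 40 passed, against 36.5% of all genes, and the median was 5.04. The exception was ECT2, which encodes the exchange factor that activates RhoA at the cleavage furrow, with 494, 695 and 587 in MCF10A and 927, 1082 and 832 in MCF10CA1h (log2 fold change 0.68, SE 0.431, adjusted p = 0.236 by limma). BUB3 passed with a small difference, 0.54 (SE 0.176, adjusted p = 0.0355 by limma).

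**Figure D5:**
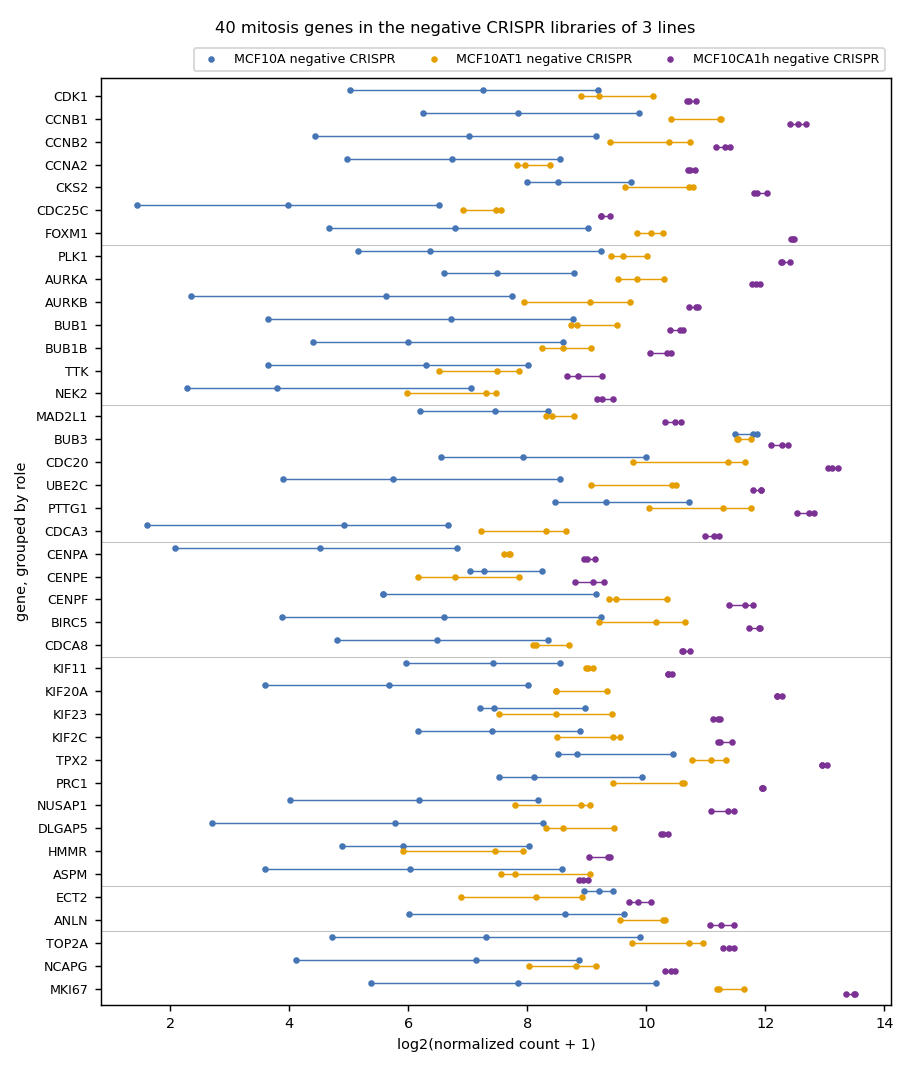
log2(normalised count + 1) of each of the 40 genes in the 9 negative CRISPR libraries (points, joined by a line within a line of cells), grouped by role. MCF10CA1h lies to the right of MCF10A for all 40 genes, and MCF10A spreads the most for most of them.

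In MCF10AT1 against MCF10A 20 of the 40 genes rose and none fell, while 28.1% of all genes changed and 13.3% rose. The median log2 fold change was 2.29, and 37 of 40 were positive. By role, 5 of 7 of CDK1 and its cyclins and regulators rose (CCNB1, CCNB2, CKS2, CDC25C and FOXM1), as did 3 of 7 mitotic kinases (PLK1, AURKA and AURKB), 3 of 6 checkpoint and anaphase-promoting complex genes (CDC20, UBE2C and CDCA3), 3 of 5 of the centromere group (CENPA, CENPF and BIRC5), 4 of 10 spindle genes (KIF11, KIF20A, TPX2 and PRC1), 2 of 3 of chromosome structure (TOP2A and MKI67) and neither of the cytokinesis genes. UBE2C showed the largest difference, with 374, 52.5 and 13.8 in replicates a, b and c of MCF10A and 1376, 1450 and 535 in MCF10AT1 (log2 fold change 3.94, SE 0.937, adjusted p = 0.0162 by limma). AURKB had 212, 48.1 and 4.12 against 532, 845 and 244, a log2 fold change of 3.67. CDCA3 had 101, 29.2 and 2.04 against 319, 400 and 149, also 3.67. For these 3 genes all MCF10AT1 libraries lay above all MCF10A libraries.

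MKI67 had 2324, 3187 and 2393 in MCF10AT1, a log2 fold change of 3.56 from MCF10A. BIRC5 had 605, 95.5 and 13.7 in MCF10A and 1146, 1598 and 586 in MCF10AT1, a log2 fold change of 3.43, with MCF10AT1 replicate c just below MCF10A replicate a. CDC25C had 187, 176 and 120 in MCF10AT1 (log2 fold change 3.34), CCNB2, cyclin B2, had 571, 128 and 20.6 in MCF10A against 1336, 1695 and 672 (3.30), and FOXM1 had 1248, 1077 and 913 in MCF10AT1 (3.24). The groups did not overlap, with MCF10AT1 higher, for 16 of the 40 genes and for 18.3% of all genes. The count of 20 depended on which libraries were in the fit. Without MCF10A replicate a 35 were called higher, without replicate b of MCF10A or replicate a of MCF10AT1 1 was, and with MCF10A and MCF10AT1 fitted alone 1 was. It was 6 without MCF10A replicate c, 5 without MCF10AT1 replicate b and 24, with 1 gene called lower, without MCF10AT1 replicate c. It was 11, 13 and 13 without MCF10CA1h replicates a, b and c, which enter only through the shared estimate of the spread. Of all genes 30.2%, 10.6% and 10.9% were called without MCF10A replicates a, b and c. The share was 12.9% without MCF10AT1 replicate a, 19.97% without its replicate b, 52.15% without its replicate c and 10.2% with MCF10A and MCF10AT1 alone. Without MCF10CA1h replicates a, b and c it was 19.2%, 20.1% and 19.5%. The median log2 fold change stayed between 1.37 and 3.38 when each library was left out. ECT2 was lower in MCF10AT1, with 283, 117 and 482 (log2 fold change −1.21, SE 0.431, adjusted p = 0.0600 by limma), all below the MCF10A libraries, and did not pass.

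In MCF10CA1h against MCF10AT1 14 of the 40 genes rose and none fell, while 21.8% of all genes changed and 11.0% rose. All 40 had a positive fold change, with a median of 1.89, and for 39 of them no library of the 2 groups overlapped, against 21.3% of all genes with MCF10CA1h higher. KIF20A, KIF23 and NUSAP1 had the largest fold changes of those that passed. KIF20A had 648, 354 and 355 in replicates a, b and c of MCF10AT1 and 4681, 4700 and 4944 in MCF10CA1h (log2 fold change 3.46, SE 0.860, adjusted p = 0.0199 by limma). KIF23 had 689, 184 and 356 against 2423, 2231 and 2354, a log2 fold change of 2.71. KIF2C, a motor that depolymerises microtubules at kinetochores, had 695, 756 and 361 against 2786, 2369 and 2426, one of 2.13. NUSAP1 had 532, 220 and 475 against 2633, 2837 and 2163, one of 2.72. In these 4 genes every MCF10CA1h library lay above every MCF10AT1 library.

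CCNA2, cyclin A2, had 331, 225 and 248 in MCF10AT1 and 1705, 1807 and 1662 in MCF10CA1h, a log2 fold change of 2.70. PLK1 had 1036, 781 and 673 against 5471, 4884 and 4976 (2.64), CDCA8, a subunit of the passenger complex, had 417, 283 and 274 against 1559, 1701 and 1558 (2.33), and CENPE, a kinetochore motor, had 231, 70.3 and 109 against 546, 624 and 444 (2.13). The others that rose were AURKA, MAD2L1, BUB3, TPX2, CKS2 and ECT2, the last at 1.90 (SE 0.431, adjusted p = 0.0139 by limma). PRC1 lay just outside the threshold at 1.73 (adjusted p = 0.0502 by limma). With MCF10AT1 and MCF10CA1h fitted alone, without the spread of MCF10A, 36 of the 40 passed, against 18.2% of all genes. The count was 28 without MCF10A replicate a or c, 9 without MCF10A replicate b, 7 without MCF10AT1 replicate a, and 4, 3 and 5 without MCF10CA1h replicates a, b and c. Of all genes 22.1%, 17.05% and 20.95% were called without MCF10A replicates a, b and c. The share was 13.1% without MCF10AT1 replicate a, and 10.8%, 10.25% and 11.3% without MCF10CA1h replicates a, b and c.

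The other cell cycle lists were read in the same control fit. Of all genes, 37.8% changed and 19.0% rose in MCF10CA1h against MCF10A. The shares were 28.1% and 13.3% in MCF10AT1 against MCF10A, and 21.8% and 11.0% in MCF10CA1h against MCF10AT1. In MCF10CA1h against MCF10A all 34 DNA replication genes rose, and 53 of 60 other mitotic genes did, with none lower and medians of 2.68 and 3.35. MYBL2, which encodes B-MYB, rose by 6.28 (SE 0.999, adjusted p = 0.00162 by limma), E2F2 by 4.82, E2F1 by 3.92 and E2F8 by 3.06, but of the 15 MuvB, B-MYB and E2F genes 6 rose and 1 fell. Of the 15 anaphase-promoting complex subunits 5 rose and 2 fell, with a median of 0.19. CDKN1A was lower, by 0.80 (SE 0.208, adjusted p = 0.0149 by limma), while CDKN2C (3.78) and CDKN2D (1.38) were higher. In MCF10AT1 against MCF10A 15 of 34 DNA replication genes and 17 of 60 other mitotic genes rose, and in MCF10CA1h against MCF10AT1 19 of 34 and 22 of 60 did. In the former 1 of the 60 fell and in the latter none did. Epithelial markers differed between the control lines too, with 4 of 10 higher and 5 lower in MCF10AT1 than in MCF10A, and 4 higher and 2 lower in MCF10CA1h than in MCF10A. Of 6 fibroblast markers tested 3 were higher in MCF10CA1h than in MCF10A (THY1, COL3A1 and LUM), with summed levels of 1083 to 1970 in MCF10A and 1270 to 1603 in MCF10CA1h. In MCF10CA1h against MCF10AT1 4 of 10 epithelial and 4 of 6 fibroblast markers were higher and none lower, and the summed fibroblast level in MCF10AT1 was 427 to 659. Their part in the levels of the mitosis genes was not tested.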

How the data were processed

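The authors pseudo-aligned paired-end reads to the hg38 transcriptome with kallisto 0.46.1, summed them to genes and normalized them with DESeq2 1.26.0 in R 4.1.1, per the labels and methods. The annotation release is not given in the sources used here, and the methods describe ribosomal RNA depletion while the labels name polyA RNA. The deposited values are normalised counts (a signal), with neither raw reads nor levels per length. They were available for 35933 genes, and 24646 further rows held no full set of values. Library sums ranged from 21347352 to 31681834. Between 10.1% and 36.9% of low values were whole multiples (tolerance 0.011) of the commonest low value in their library. Reads were therefore not recovered, the depth is unknown, and counting error could not be given.

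From these values, limma 3.58.1 in R 4.3.3 (lmFit, eBayes with trend) was run on log2(value + 1) for genes whose mean reached 10 in the fitted libraries, and p was adjusted by Benjamini-Hochberg over all genes, two-sided, with a threshold of 0.05. Each line was fitted alone for the CRISPR effect, the 9 control libraries together for differences between lines, and all 18 for interactions. The fit was tested on simulated data with independent noise for each gene and library. That simulation did not hold the shifts of many genes together seen in some libraries here. Summaries used Python 3.11.15 (SciPy 1.17.1, NumPy 2.4.6, pandas 2.3.3). Gene spans come from GENCODE and promoters from RefSeq. Their starts can differ, so a promoter window may lie inside a gene span, as that of KIF11 does.

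The members and lists were chosen with earlier results of these data known. Values in every library are given for members past the threshold, for the 8 with the largest fold change where more passed and for the 3 with the smallest adjusted p where none did. METTL3 and up to 4 genes per other list were also named. Other members named for a wide, narrow or near-zero value were chosen after their values were seen. Same-letter libraries of the 2 CRISPR arms deviated together in MCF10A (r = 0.22, 0.20 and 0.12 for a, b and c, across 15897 genes, which are not independent) and in MCF10AT1 (0.11, 0.29 and 0.48), and not in MCF10CA1h (−0.01, 0.02 and 0.05). The letters were therefore taken as possible pairs in MCF10A and MCF10AT1. In MCF10AT1 replicate b of the negative CRISPR line also went with replicate a of the METTL3 CRISPR line (r = 0.25). The main fits did not use the pairs, which entered only as the replicate block among the alternatives. The alternatives were a pseudocount of 5, no filter, no trend, equal sums, the replicate block, other sets of libraries in the fit, and each library left out.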

Additional observations from a re-analysis of the deposited data

Results flagged for a closer look

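The genes below, from the other cell cycle lists, differed between lines in the CRISPR effect by the interaction contrasts over the 18 libraries (limma, log2 difference of the CRISPR effect, adjusted p under 0.05). Apart from the CDK inhibitors, they were few of their lists. In MCF10AT1 against MCF10A 3 of 34 DNA replication genes, 1 of 60 other mitotic genes, 2 of 15 anaphase-promoting complex subunits and 2 of 5 CDK inhibitors passed, while 21.6% of all genes did. In MCF10CA1h against MCF10A 2 of the 60 and 2 of the 5 passed, against 5.34% of all genes, and in MCF10CA1h against MCF10AT1 1 of the 60, 1 of the 15 and 1 of the 5, against 18.2%. In MCF10AT1 against MCF10A the effect was more negative for the replication genes GINS1 (−2.31), PCNA (−1.89) and PRIM1 (−1.67), for the anaphase-promoting complex subunit ANAPC1 (−0.96) and for the phosphatase CDC25B (−0.73). It was more positive for the CDK inhibitors CDKN1C (2.33) and CDKN2D (1.91) and for FZR1 (0.76), the other activator of the anaphase-promoting complex. In MCF10CA1h against MCF10A it was more negative for the condensin subunits SMC2 (−1.54) and NCAPD3 (−1.08) and more positive for CDKN1C (3.33) and CDKN1A (1.18). In MCF10CA1h against MCF10AT1 it was more positive for CDKN1A (1.36) and CDC25B (0.75) and more negative for ANAPC2 (−0.67).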

How the results depend on the processing

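The number of the 40 genes past the threshold moved by more than 1.5 times in the settings below and, for MCF10AT1 against MCF10A and MCF10CA1h against MCF10AT1, with most libraries left out. In the METTL3 CRISPR effect of MCF10CA1h it was 4, and it was 2 without the trend, 10 with equal sums and 0 with all 18 libraries in one fit. Of all genes 12.8%, 7.42%, 13.75% and 1.56% passed in these settings. In the negative CRISPR lines, MCF10AT1 against MCF10A gave 20, and 1 with only those 2 lines fitted, while 28.1% and 10.2% of all genes passed. MCF10CA1h against MCF10AT1 gave 14, and 9 without the trend and 36 with only those 2 lines, while 21.8%, 20.5% and 18.2% of all genes passed. The cause of these changes was not tested. With 1 library left out, the counts ran from 0 to 17 in MCF10A, 0 to 6 in MCF10AT1 and 2 to 8 in MCF10CA1h for the CRISPR effect. They ran from 1 to 35, 35 to 40 and 3 to 28 for MCF10AT1 against MCF10A, MCF10CA1h against MCF10A and MCF10CA1h against MCF10AT1, and from 0 to 7, 0 to 5 and 0 to 1 for the interactions in the same order. The difference of the members' mean log2 level between the CRISPR arms, 1.08, 0.17 and −0.26 in MCF10A, MCF10AT1 and MCF10CA1h, ran from 0.19 to 2.0 with 1 library left out, from −0.39 to 0.98 and from −0.32 to −0.21. With the replicate block, which pairs libraries of the same letter, the counts were 0, 0 and 3 for the CRISPR effect, 26, 38 and 18 for the control lines and 0, 0 and 0 for the interactions, so the block moved no count by over 1.5 times. Of all genes 7.6%, 24.5% and 12.4% passed for the CRISPR effect with the block, against 2.65%, 13.0% and 12.8% without it. With the block the shares were 23.55%, 34.6% and 17.6% for the control lines and 28.9%, 8.07% and 24.8% for the interactions. Of the values of single named genes under the alternatives, 618 kept their direction and side of the threshold, 96 lost the call, 9 gained it and 0 reversed. Because the depth of each value is unknown, genes with values under 10 in some MCF10A libraries, such as CDC25C and CDCA3, have fold changes that depend on the pseudocount.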
